A study of Mus musculus with 12 samples.

Results

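The nuclear-encoded subunits of oxidative phosphorylation were followed in the esophagus and liver of mice carrying an inducible Nanog transgene and of their controls. Members were all genes on the array whose RefSeq accession maps to a mouse symbol beginning with Nduf, Uqcr or Atp5, to Sdha, Sdhb, Sdhc or Sdhd, or to a Cox4 to Cox8 symbol with a letter after the number. This rule uses names and no measured value. It gave 87 of the 16535 named genes, read by 108 of 41174 probes. Of these probes 23374 had a gene symbol, and each probe without one was counted as a gene of its own. Numbers, shares and medians over all genes below therefore cover named genes and such single probes together. By symbol they comprise 7 core subunits of complex I, 29 accessory subunits and 5 assembly factors of that complex, 4 subunits of complex II, 7 of complex III, 18 of complex IV and 17 of complex V. The symbol Ndufa4l2 matched no probe.

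Oxidative phosphorylation couples electron transport along the inner mitochondrial membrane to ATP synthesis. Complex I (NADH dehydrogenase, Nduf genes) and complex II (succinate dehydrogenase, Sdh genes) pass electrons through ubiquinone to complex III (Uqcr genes), cytochrome c and complex IV (cytochrome c oxidase, Cox genes), and complex V (ATP synthase, Atp5 genes) makes ATP from the resulting proton gradient. Several small regulatory subunits of cytochrome c oxidase exist as a form used in most tissues, including liver, and a form typical of heart and skeletal muscle. In the mouse these pairs are Cox6a1 and Cox6a2, Cox7a2 and Cox7a1, and Cox8a and Cox8b, in each case with the liver form first. The mouse esophagus carries a coat of striated muscle, whereas the liver is made up mainly of hepatocytes.

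The 3 TG mice were Col1a1tetO-Nanog/+;Rosa26rtTA/+, so Nanog stood under a tetracycline-responsive promoter in the Col1a1 locus and the doxycycline-dependent activator rtTA was at Rosa26. The 3 CTR mice were Col1a1+/+;Rosa26rtTA/+ and thus carried rtTA without the transgene. All 6 animals were males of about 8 months on a mixed 129Sv/C57BL6 background, and all, controls included, drank 0.2 mg/ml doxycycline in 7.5% sucrose for 48 h. Each mouse gave 1 liver and 1 esophagus array, which makes 4 groups of 3. The labels do not say which cells turned the transgene on, and esophagus and liver RNA were extracted by different methods, which means that organ and extraction method cannot be told apart.

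The share of probes well above background ran from 56.4% to 81.8%, with both extremes among the livers (CTR3 lowest, TG3 highest), and arrays of one organ correlated at 0.954 to 0.988 over all probes against 0.619 to 0.648 between organs. Levels are given as log2 of the background-subtracted intensity minus the array's 75th percentile, so 0 is the level at that percentile. Nanog was well above background on 0 of the 12 arrays; where its probe lies relative to the transgene is not given, so it does not check the genotype labels. All 15 skeletal muscle markers were well above background in each esophagus and their summed level was 2303 to 2871 times the 75th percentile, against 2.23 to 7.80 in the livers, where 7 to 15 of them were above background. The 9 hepatocyte markers summed to 2993 to 3842 in the livers and 1.13 to 3.24 in the esophagi. Within the esophagi, the 10 heart markers had median levels of 4.67 in CTR1 and 3.22 in CTR3, 1.08 in CTR2 and 0.36 to 0.48 in the TG mice.

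The muscle forms of cytochrome c oxidase were the members that separated the organs most. Cox6a2, the muscle form of subunit VIa, had levels of 6.05, 5.90 and 6.15 in the TG esophagi and 6.14, 5.998 and 6.10 in the CTR esophagi. In the livers it stood at -1.88, -2.93 and -1.90 in TG and -2.44, -1.98 and -1.49 in CTR mice. The 6 esophagi lay within a narrow band and none approached any liver. The difference was 8.05 ± 0.31 (log2, SE, n = 3 against 3) in CTR mice, a 264.5-fold higher level in esophagus, and 8.27 ± 0.31 in TG mice (adjusted p = 6.37e-09 and 5.65e-09, limma).

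Cox8b, the muscle form of subunit VIII, had levels of 4.01, 4.21 and 4.45 in the TG esophagi and 4.11, 4.36 and 3.44 in the CTR esophagi. Its liver levels were -4.18, -4.24 and -3.66 in TG mice and -4.43, -4.46 and -5.58 in CTR mice, where it was well above background on 2 of the 3 arrays. Esophagus and liver did not overlap in either genotype, and the lowest value of each organ among controls came from CTR3. Cox8b was 8.79 ± 0.34 higher in CTR esophagus than in CTR liver and 8.25 ± 0.34 higher in TG esophagus than in TG liver on the log2 scale (adjusted p = 7.56e-09 and 1.31e-08, limma). The CTR value was 8.42 without liver CTR3, the array on which Cox8b was not well above background.

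Cox7a1, the muscle form of subunit VIIa, was measurable in both organs. It had levels of 5.20, 5.20 and 5.53 in the TG esophagi and 5.46, 5.50 and 5.09 in the CTR esophagi, against 1.34, 1.22 and 1.45 in the TG livers and 1.11, 1.18 and 0.64 in the CTR livers. Every esophagus was above every liver, with a smaller gap than for Cox6a2 and Cox8b. The difference was 4.37 ± 0.20 (log2) in CTR and 3.97 ± 0.20 in TG mice (adjusted p = 2.17e-08 and 4.81e-08, limma). These arrays measured bulk tissue, in which fewer cells of a type and less RNA per cell cannot be told apart. The skeletal muscle markers moved with the 3 muscle forms, at the summed levels given above, and their part in the differences was not tested. Without esophagi CTR1 and CTR3, which had the highest heart markers, CTR2 was the only CTR esophagus left. The 3 CTR differences, which then lack replicates in esophagus, were 7.97, 9.18 and 4.52 for Cox6a2, Cox8b and Cox7a1.

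**Figure D1:**
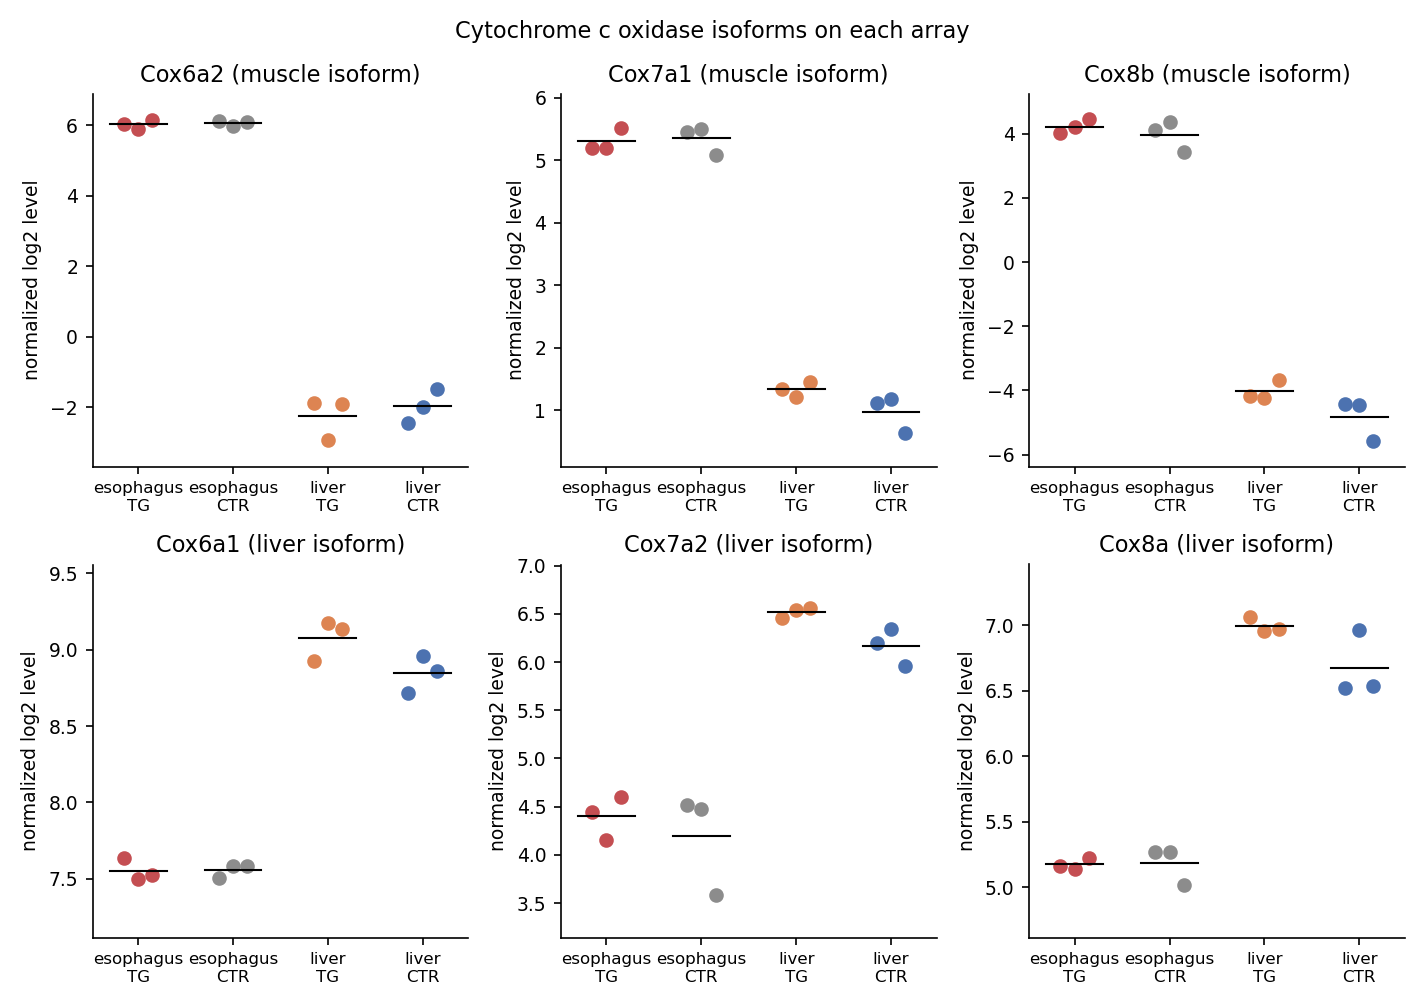
Level of the muscle and liver forms of 3 cytochrome c oxidase subunits on each of the 12 arrays, as log2 intensity relative to the array's 75th percentile; each point is 1 array and the lines mark group means. The muscle forms Cox6a2, Cox7a1 and Cox8b are higher in all 6 esophagi than in all 6 livers, and the liver forms Cox6a1, Cox7a2 and Cox8a are lower in all 6 esophagi.

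The liver forms went the other way. Cox6a1 had levels of 7.64, 7.50 and 7.52 in the TG and 7.50, 7.58 and 7.59 in the CTR esophagi, and of 8.93, 9.18 and 9.13 in the TG and 8.72, 8.96 and 8.86 in the CTR livers. The organs did not overlap, and the probe was bright in both. Cox6a1 fell by 1.29 ± 0.14 (log2) from liver to esophagus in CTR and by 1.53 ± 0.14 in TG mice (adjusted p = 1.93e-05 and 5.59e-06, limma). This call depends on the scaling, because it was made with the 75th percentile and with quantile normalization but not with normexp background correction or in the authors' deposited table.

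Cox7a2 had levels of 4.45, 4.15 and 4.60 in the TG and 4.51, 4.47 and 3.59 in the CTR esophagi, and of 6.46, 6.54 and 6.56 in the TG and 6.20, 6.34 and 5.96 in the CTR livers. Esophagus CTR3 was the lowest array for Cox7a2. The difference of esophagus minus liver was -1.98 ± 0.25 (log2) in CTR and -2.12 ± 0.25 in TG mice (adjusted p = 5.41e-05 and 3.27e-05, limma). Cox8a had levels of 5.16, 5.14 and 5.23 in the TG and 5.27, 5.27 and 5.02 in the CTR esophagi, and of 7.06, 6.95 and 6.97 in the TG and 6.52, 6.96 and 6.54 in the CTR livers. For Cox8a the esophagi again lay together below all livers, by -1.49 ± 0.16 in CTR and -1.82 ± 0.16 in TG mice (adjusted p = 1.83e-05 and 4.13e-06, limma). Cox7a2 and Cox8a kept their direction and their call under all 4 scalings in both genotypes. Normexp and the authors' table gave nearly the same values, such as -1.315 and -1.313 for Cox7a2 in CTR mice, so they are not separate checks.

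Within each animal, the log2 ratio of a muscle form to its liver form can be compared between the animal's own esophagus and liver, which leaves out any factor common to an array. The ratio of Cox6a2 to Cox6a1 was 9.57 ± 0.57 (log2, SD, n = 6) higher in esophagus, with the lowest animal at 8.87 and the highest at 10.51. The ratio of Cox8b to Cox8a was 10.1 ± 0.29 higher in the 5 animals with Cox8b well above background in both tissues, from 9.80 to 10.51; with CTR3, whose liver signal was not well above background, the mean was 10.18 ± 0.32. The ratio of Cox7a1 to Cox7a2 was 6.22 ± 0.34 higher and ranged from 5.87 to 6.82. All 3 ratios were higher in esophagus in 6 of 6 animals (two-sided exact sign-flip permutation test, p = 0.03125 for each and after adjustment over the 3 pairs, the smallest that 6 animals allow). The TG and CTR means were 9.80 and 9.34 for Cox6a2 to Cox6a1, 10.07 and 10.28 for Cox8b to Cox8a, and 6.10 and 6.35 for Cox7a1 to Cox7a2, so the ratios differed little by genotype next to their difference by organ. The muscle forms were also higher in esophagus on each of the 5 slides, by 7.39 to 9.09 for Cox6a2, 3.98 to 4.56 for Cox7a1 and 7.87 to 8.69 for Cox8b where the slide did not hold liver CTR3.

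**Figure D2:**
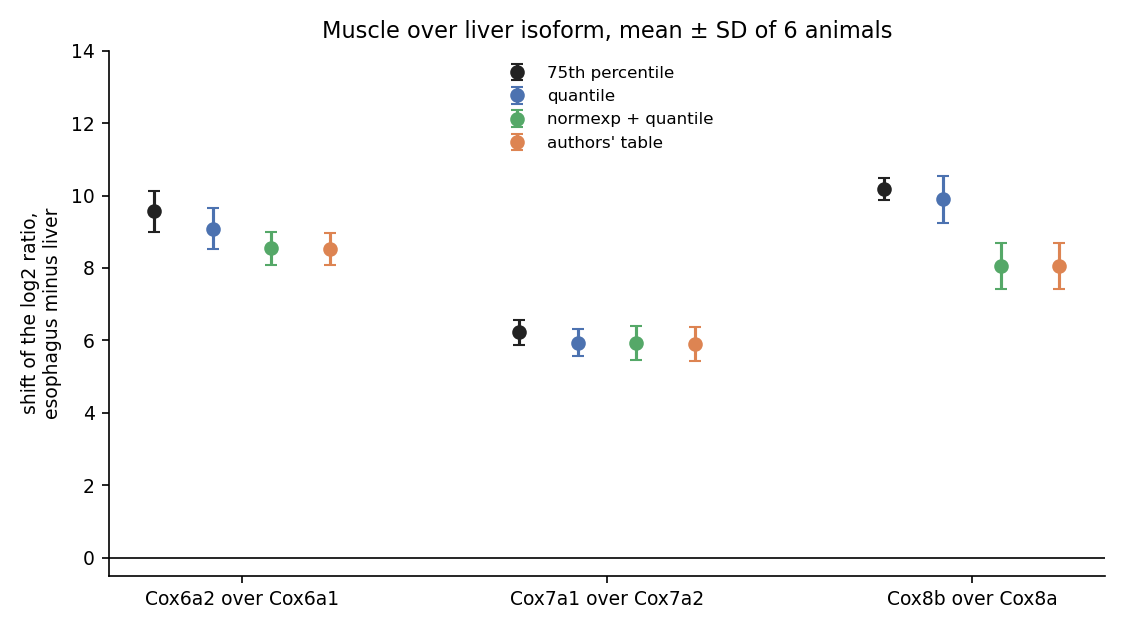
Difference between esophagus and liver of the same animal in the log2 ratio of the muscle to the liver form (vertical axis, log2 units) for 3 cytochrome c oxidase subunits; points and bars are the mean and SD of 6 animals, and colours mark the 4 scalings of the arrays. With the 75th percentile the means are 9.57, 6.22 and 10.18, and under the other scalings they lie between 5.90 and 9.89, all above 0.

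The start regions of 5 of these isoform genes are shown because they let the forms with opposite organ patterns be compared; Cox6a2 is not shown, so a comparison within a pair covers the Cox7a and Cox8 forms. The RefSeq promoter table (GRCm38.p6) held windows of 250 bases before to 50 after the start, 300 bases in all, for 72 of the 87 members with 77 promoters. The 120 bases just upstream of the start are printed 5′ to 3′ on the gene's strand, with CG dinucleotides in capitals, for the muscle forms Cox7a1 (chr7:30184051-30184170, plus strand) and Cox8b (chr7:140900447-140900566, minus strand) and for the liver forms Cox7a2 (chr9:79759854-79759973, minus strand), Cox8a (chr19:7217617-7217736, minus strand) and Cox6a1 (chr5:115348959-115349078, minus strand).
Cox7a1: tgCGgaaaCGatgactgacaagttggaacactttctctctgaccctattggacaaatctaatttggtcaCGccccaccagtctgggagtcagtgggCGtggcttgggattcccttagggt
Cox8b: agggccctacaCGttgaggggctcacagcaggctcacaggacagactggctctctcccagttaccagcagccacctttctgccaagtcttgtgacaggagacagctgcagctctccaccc
Cox7a2: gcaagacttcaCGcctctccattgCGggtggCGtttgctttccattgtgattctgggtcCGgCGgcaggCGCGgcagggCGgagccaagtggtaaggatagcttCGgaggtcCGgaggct
Cox8a: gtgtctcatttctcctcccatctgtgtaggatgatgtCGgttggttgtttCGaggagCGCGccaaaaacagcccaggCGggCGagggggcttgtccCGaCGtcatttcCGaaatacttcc
Cox6a1: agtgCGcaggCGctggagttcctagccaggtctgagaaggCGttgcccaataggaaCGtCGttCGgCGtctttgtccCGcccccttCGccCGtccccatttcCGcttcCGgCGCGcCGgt
The muscle forms Cox7a1 and Cox8b held 4 and 1 CG dinucleotides in these stretches, and the liver forms Cox7a2, Cox8a and Cox6a1 held 10, 9 and 15.

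Over the whole 300-base windows, the median promoter of the members held 19 CG dinucleotides and 58.3% G and C, against 7 and 52.7% over all 32851 promoters of the table. Cox8b, with 2, had the fewest of the 72 members, and Cox7a1 held 7, whereas Cox7a2 held 20, Cox8a 19 and Cox6a1 32. Cox7b, which was lower in esophagus than in liver, held 5, so a low count was not limited to the muscle forms. The NRF1 motif (GCGCA, any base, then GCGC), read by a factor known for many respiratory chain genes, was found on either strand in 19 of 77 member promoters (24.7%, against 4.6% of all). The ETS motif CCGGAAG, bound by factors such as GABP, was in 18 (23.4% against 8.86%), and the ERR motif AAGGTCA in 8 (10.4% against 4.72%). The E-box CANNTG, which muscle factors of the MyoD family bind among others, was in 54 (70.1% against 72.3%), the MEF2 motif in 0 (against 3.19%), and TATAAA on the strand of the gene in 3 (3.9% against 8.32%). Cox6a1 held the NRF1 and ETS motifs, Cox8a the ETS motif and an E-box, Cox8b an E-box and TATAAA, and Cox7a1 and Cox7a2 an E-box. These matches describe the letters in the windows and were not tested against the expression values.

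**Figure D3:**
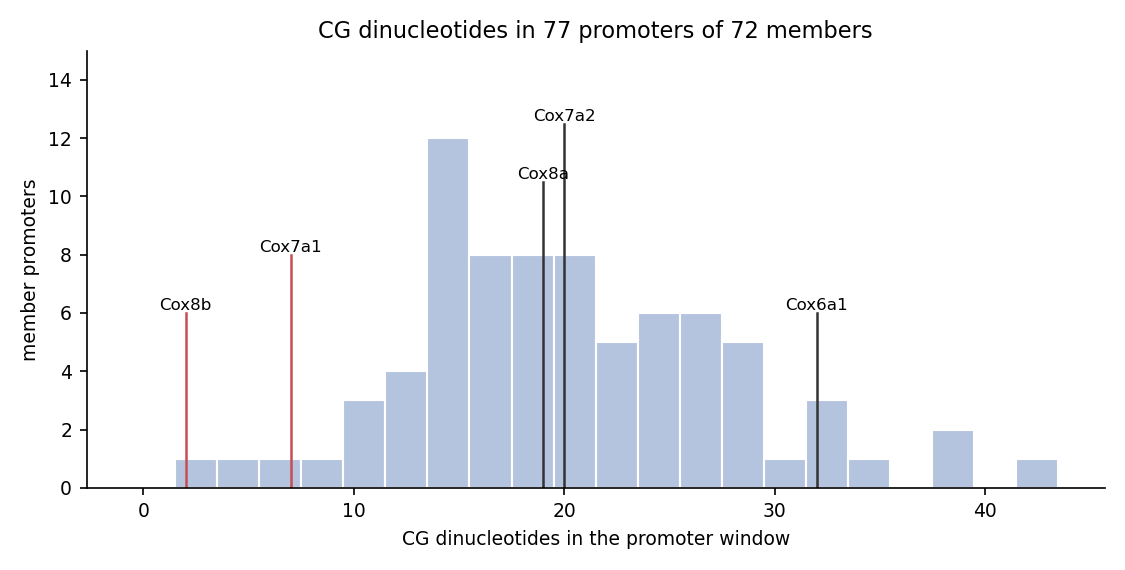
Histogram of the number of CG dinucleotides (horizontal axis) in the 300-base promoter windows of the members, with the number of promoters on the vertical axis; red and black lines mark the counts of 2 muscle forms and 3 liver forms. Cox8b and Cox7a1 lie at the low end with 2 and 7, Cox8a and Cox7a2 near the middle with 19 and 20, and Cox6a1 at 32.

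With the 75th percentile, no member of the other isoform sets of complex IV was called higher in esophagus. Cox4i1, the general form of subunit IV, had levels of 6.28, 6.13 and 6.38 in the TG and 6.32, 6.397 and 6.33 in the CTR esophagi, against 7.39, 7.28 and 7.42 in the TG and 7.14, 7.33 and 7.14 in the CTR livers. It was lower in esophagus by -0.86 ± 0.14 (log2) in CTR and -1.10 ± 0.14 in TG mice (adjusted p = 0.000328 and 5.41e-05, limma), but its CTR difference was 0.02 after quantile normalization. Cox4i2, a form best known from lung, was dim everywhere, at -5.04 to -4.09 in the esophagi and -4.11 to -2.07 in the livers. It differed by -1.17 in CTR and -1.25 in TG mice and was called lower in esophagus (adjusted p = 0.0345 and 0.0257, limma). The call was made under all 4 scalings in CTR mice but not in TG mice. Among the 3 CTR livers, 2 had Cox4i2 well above background. Cox6b1, the general form of subunit VIb, had levels of 1.37, 1.06 and 1.16 in the TG and 0.99, 0.99 and -0.48 in the CTR esophagi, with CTR3 far below the others, and 2.20 to 2.92 in the livers. Its differences of esophagus minus liver were -1.94 ± 0.36 in CTR and -1.45 ± 0.36 in TG mice (adjusted p = 0.000787 and 0.00473, limma). Cox6b2, the testis form, differed by -0.54 and -0.31 and passed in neither genotype. Cox7b had levels of 3.70, 3.74 and 3.68 in the TG and 3.66, 3.73 and 2.85 in the CTR esophagi and 5.21 to 5.91 in the livers, a difference of -1.99 ± 0.24 in CTR and -2.02 ± 0.24 in TG mice (adjusted p = 3.55e-05 and 3.34e-05, limma). Cox7a2l, which acts in joining complexes III and IV, differed by -0.21 in CTR and 0.13 in TG mice and passed in neither, but it was called higher in TG mice after quantile normalization, by 0.63. Cox7b2 was above background on 0 arrays and Cox8c, a testis form, on 1, so neither was tested.

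With the 75th percentile as the scale, most of the 85 tested members passed the test between organs. In CTR mice 78 of 85 were called (91.8%), while 62.5% of all genes tested were called; 3 were higher in esophagus and 75 lower (88.2%, while 35.9% of all genes were called lower). In TG mice 79 were called (92.9%, against 63.5% of all genes), 4 higher and 75 lower (88.2%, against 40.2%). The 2 contrasts share no array, but both use 1 estimate of each gene's spread, so their calls are not independent. In both, 76 members were called in the same direction. These are 97.4% of the CTR calls and 96.2% of the TG calls, against 87.6% and 87.2% over all genes tested in both. The members' median difference was -0.90 (log2) in CTR and -0.998 in TG mice, against -0.20 and -0.41 over all genes, so relative to all genes the members stood at -0.71 and -0.58.

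The number of members lower in esophagus depended strongly on the scaling. The 75th percentile was 9.56 to 10.1 (log2) in the esophagi and 8.91 to 9.34 in the livers. More was thus subtracted from each esophagus array than from any liver array, and the part of this in the counts was not tested. After quantile normalization 29 members were lower and 10 higher in CTR mice, against 31.9% and 31% of all genes, and 32 were lower and 9 higher in TG mice, against 32.1% and 30.1% of all genes. The members' median was then -0.22 in both, and that of all genes -0.04 and -0.08. Normexp with quantile normalization gave 27 lower and 8 higher in CTR mice (30.5% and 29.9% of all genes) and 29 lower and 7 higher in TG mice (30.4% and 28.9%), and in the authors' deposited log2 table the counts were 27 and 8 in CTR and 29 and 6 in TG mice (30.5% and 29.9%, and 30.3% and 28.8%, of all genes). Under these scalings 31.8% to 37.6% of members were lower, which is near the share of all genes. The members Atp5o, Ndufa13, Ndufb10, Ndufs5 and Uqcrh in CTR mice, and Ndufb8 and Uqcrc1 in TG mice, were called lower with one scaling and higher with another, so no direction is given for them. In both genotypes, 23 members were lower in esophagus under all 4 scalings and 3, the muscle forms, were higher under all 4. These are 27.1% and 3.53% of the members, against 25.9% and 21.5% of the 22839 genes tested in both contrasts, so the share of members that were lower under every scaling was close to that of all genes. The 23 had differences of -1.99 to -0.81 in CTR and -2.27 to -0.81 in TG mice with the 75th percentile, and of -1.73 to -0.60 and -1.32 to -0.55 after quantile normalization.

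**Figure D4:**
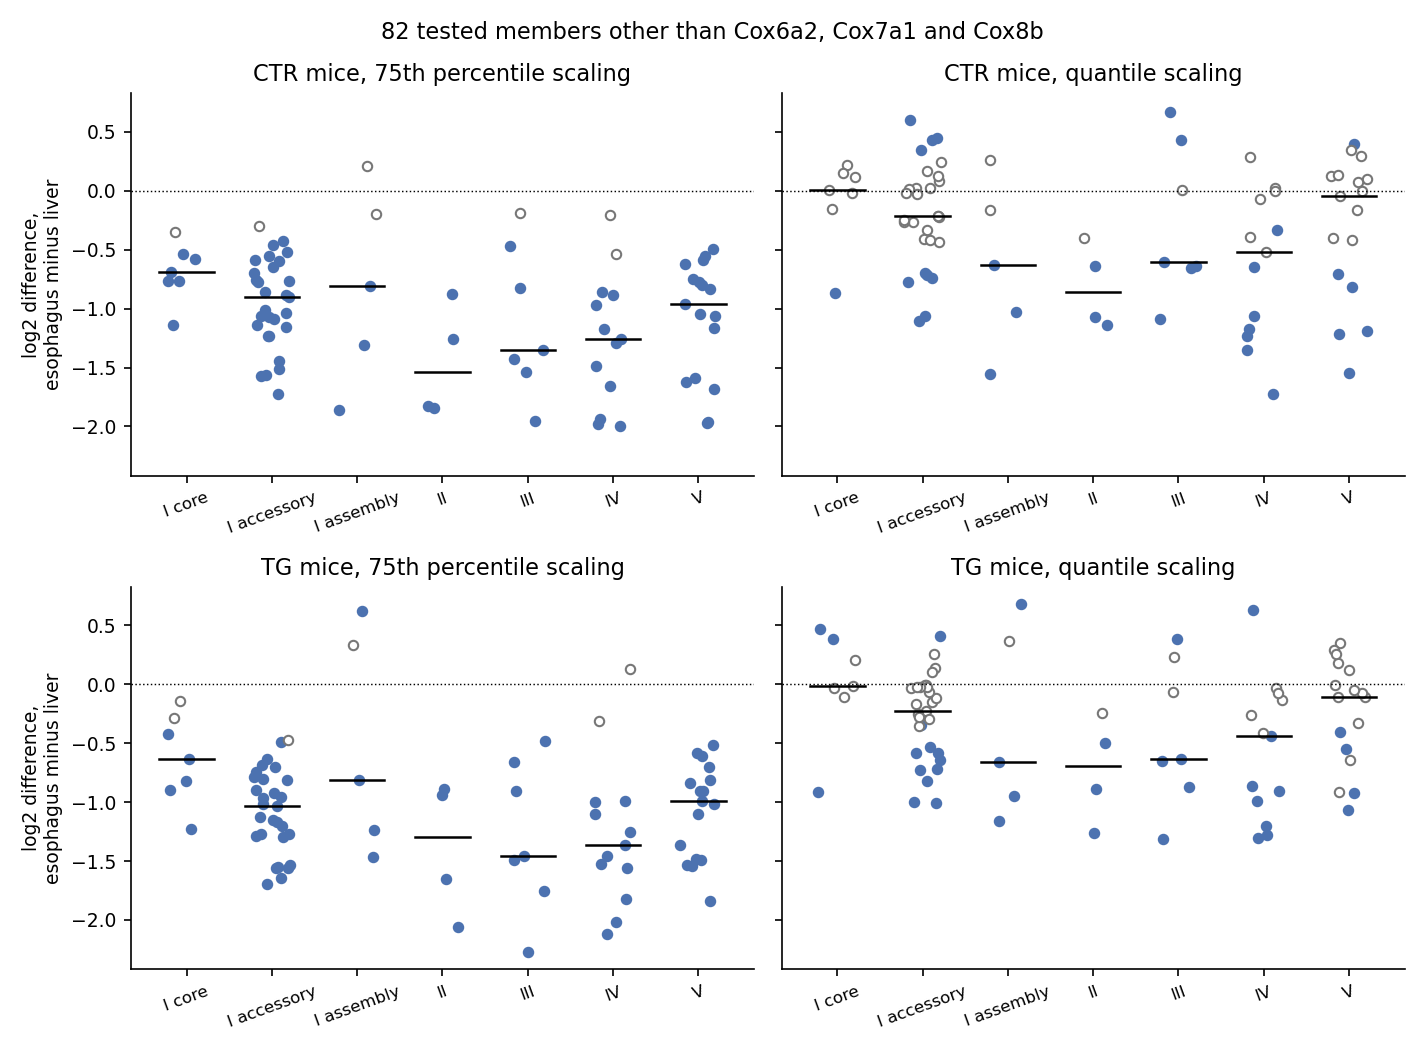
Log2 difference of esophagus minus liver (vertical axis) by complex (horizontal axis) for the 82 tested members other than Cox6a2, Cox7a1 and Cox8b, in CTR mice (top) and TG mice (bottom), scaled by the 75th percentile (left) or quantile normalization (right); each point is 1 gene, filled where it passed the test, and lines mark class medians. On the left nearly every point lies below 0, between -2.27 and 0.62, and on the right the points of complex I core and complex V centre near 0 while those of complexes II and III stay mostly below it.

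Complex II, the only complex that is also an enzyme of the citric acid cycle, had the lowest class median in CTR mice, -1.54 (log2) with the 75th percentile and -0.86 after quantile normalization; in TG mice it stood at -1.30 and -0.69, and complex III was lower with the 75th percentile at -1.45. Sdhb, its iron-sulfur subunit, had levels of 3.78, 4.05 and 3.98 in the TG and 3.84, 3.92 and 3.60 in the CTR esophagi, against 5.46, 5.43 and 5.87 in the TG and 5.46, 5.77 and 5.65 in the CTR livers. All livers exceeded all esophagi, by -1.84 ± 0.18 for esophagus minus liver in CTR and -1.65 ± 0.18 in TG mice (adjusted p = 7.65e-06 and 1.78e-05, limma). Sdhd, a membrane anchor, had levels of 3.98, 4.35 and 4.43 in the TG and 4.26, 4.08 and 4.001 in the CTR esophagi, and of 6.19, 6.33 and 6.43 in the TG and 5.76, 6.07 and 5.98 in the CTR livers. It differed by -1.83 ± 0.17 and -2.06 ± 0.17 (adjusted p = 6.18e-06 and 2.54e-06, limma), and both Sdhb and Sdhd were lower under all 4 scalings in both genotypes. The other anchor Sdhc differed by -1.25 and -0.89, and the flavoprotein Sdha by -0.88 and -0.94, in calls that were not made under all 4 scalings in both genotypes.

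In complex III 4 of 7 members, Uqcrq, Uqcrb, Uqcr11 and Uqcrfs1, were called lower in esophagus under all 4 scalings in both genotypes. Of all genes tested in both contrasts 25.9% were. Uqcrq, a small ubiquinone-binding subunit, had levels of 6.36, 6.23 and 6.26 in the TG and 6.34, 6.52 and 5.84 in the CTR esophagi and 8.00 to 8.58 in the livers. Its difference of -2.27 ± 0.19 in TG mice was the lowest of any member, and in CTR mice it was -1.95 ± 0.19 (adjusted p = 2.77e-06 and 8.45e-06, limma). Uqcrfs1, the Rieske iron-sulfur protein, had levels of 4.44 to 4.79 in the esophagi and 5.79 to 6.43 in the livers and differed by -1.43 ± 0.17 in CTR and -1.49 ± 0.17 in TG mice (adjusted p = 3.06e-05 and 2.33e-05, limma). The core protein Uqcrc1 had levels of 5.41 to 5.69 in the esophagi and 5.61 to 6.17 in the livers, and its CTR difference was -0.19 with the 75th percentile (adjusted p = 0.323, limma) but 0.67 after quantile normalization. Uqcrc2 differed by -0.82 in CTR and -0.91 in TG mice with the 75th percentile and by 0.01 in CTR mice after quantile normalization.

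The catalytic core of complex I had the class median nearest to 0 in CTR mice, -0.69 (log2) with the 75th percentile and 0.01 after quantile normalization. In this class 1 of 7 core subunits, Ndufs8, an iron-sulfur subunit, was lower under all 4 scalings in both genotypes, against 25.9% of all genes. Ndufs8 had levels of 1.67, 1.83 and 1.93 in the TG and 1.75, 1.76 and 1.26 in the CTR esophagi, and of 2.85, 3.13 and 3.13 in the TG and 2.91, 2.53 and 2.76 in the CTR livers. It differed by -1.14 ± 0.19 and -1.23 ± 0.19 in CTR and TG mice (adjusted p = 0.000375 and 0.000229, limma). Ndufs1, the largest subunit, differed by -0.54 in CTR (adjusted p = 0.0191) and -0.28 in TG mice (adjusted p = 0.169, limma), and by 0.22 and 0.47 after quantile normalization. Ndufv1, which binds NADH, differed by -0.69 and -0.64, and by 0.12 and 0.20 after quantile normalization.

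Of the 29 accessory subunits of complex I, 5 were lower under all 4 scalings in both genotypes, namely Ndufa1, Ndufa2, Ndufa3, Ndufa6 and Ndufs6. The share among all genes tested in both contrasts was 25.9%. Ndufa6 had levels of 3.36 to 3.85 in the esophagi and 5.02 to 5.53 in the livers, a difference of -1.72 ± 0.19 in CTR and -1.70 ± 0.19 in TG mice (adjusted p = 2.05e-05 and 2.35e-05, limma). Ndufa4, first assigned to complex I and now counted with cytochrome c oxidase, differed by -1.16 and -0.97 with the 75th percentile, but by -0.265 and -0.00831 after quantile normalization, where neither passed (adjusted p = 0.196 and 0.97, limma). Of the 5 assembly factors, which help build complex I and are not part of it, Ndufaf1, Ndufaf3 and Ndufaf4 were lower under all 4 scalings. Ndufaf4 had levels of 0.97 to 1.75 in the esophagi and 2.49 to 3.63 in the livers and differed by -1.86 ± 0.32 and -1.47 ± 0.32 in CTR and TG mice (adjusted p = 0.000526 and 0.0024, limma). Ndufaf5 was higher in TG esophagus than in TG liver by 0.62 ± 0.22 (adjusted p = 0.0327, limma), where its spot on esophagus TG1 was an outlier and the fit used 2 arrays against 3; with the animal as a replicate block the adjusted p was 0.0641.

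Complex V had a median difference of -0.96 in CTR mice with the 75th percentile and of -0.04 after quantile normalization. With the 75th percentile all 17 members were called lower in CTR mice, as were 35.9% of all genes. Atp5mpl, a small subunit of the membrane part, had levels of 2.63, 2.58 and 2.88 in the TG and 2.38, 2.46 and 1.68 in the CTR esophagi, with CTR3 lowest, and 3.91 to 4.37 in the livers. It differed by -1.97 ± 0.22 in CTR and -1.53 ± 0.22 in TG mice (adjusted p = 2.23e-05 and 0.000143, limma), and with Atp5j and Atp5j2 it was lower under all 4 scalings in both genotypes. Atp5j2 had levels of 4.17 to 5.10 in the esophagi and 6.05 to 6.91 in the livers and differed by -1.62 ± 0.23 and -1.84 ± 0.23 in CTR and TG mice (adjusted p = 0.000121 and 4.9e-05, limma). The catalytic subunit Atp5b differed by -0.55 and -0.59 with the 75th percentile but by 0.34 and 0.35 after quantile normalization. The other, dimmer probes of Atp5b did not share this difference in TG mice. With the 75th percentile they stood at -0.12 and -0.25 in CTR but at 0.42 and 0.39 in TG mice. Atp5a1, the partner of Atp5b, differed by -1.04 and -1.01 with the 75th percentile. After quantile normalization it differed by -0.17 and -0.11, where neither passed (adjusted p = 0.429 and 0.622, limma). The 3 genes Atp5g1, Atp5g2 and Atp5g3 encode the same mature proton-carrying ring subunit, and differed by -1.16, -0.62 and -0.96 in CTR and by -1.10, -0.61 and -1.37 in TG mice; Atp5g2 stood at 0.14 and 0.19 after quantile normalization.

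Other genes of the pathway were read from 4 lists, in which 0 genes were called between genotypes in either organ. Between organs, 35.9% of all genes tested were called lower and 26.5% higher in esophagus in CTR mice, and 40.2% and 23.4% in TG mice. After quantile normalization these shares were 31.9% and 31% in CTR mice and 32.1% and 30.1% in TG mice. Of 34 tested assembly factors outside the members, 21 were lower and 1 higher in CTR esophagus than in CTR liver, and 22 and 1 in TG mice (17 and 4, and 15 and 4, after quantile normalization), with Coa7 at -2.79 and -3.07, Tmem126b at -2.25 and -2.16, Cox19 at -2.07 and -2.20 and Foxred1 at -2.03 and -1.95. Electron and exchange carriers were mixed, with 8 higher and 7 lower of 17 tested in CTR mice and 7 and 6 of 16 in TG mice (9 and 5 in both after quantile normalization). Among these, mitochondrial creatine kinase Ckmt1 stood at 7.67 and 6.31, the ADP/ATP carrier Slc25a4, the form typical of heart and muscle, at 4.13 and 3.93, and the flavoprotein dehydrogenase Etfdh at -2.41 and -2.46. Of 13 citric acid cycle genes 4 were higher and 6 lower in CTR mice and 5 and 6 in TG mice. After quantile normalization these counts were 7 and 5 in CTR mice and 7 and 4 in TG mice. Suclg2 stood at -2.89 and -2.73 and Fh1 at -1.79 and -1.90, but Idh3a at 1.60 and 1.496 and citrate synthase Cs at 1.39 and 1.06. Of 14 regulators of mitochondrial genes 3 were higher and 8 lower in CTR mice and 3 and 7 in TG mice. After quantile normalization these counts were 3 and 8 in CTR mice and 4 and 7 in TG mice. Ppara, a regulator of fatty acid oxidation, stood at -4.66 and -4.90 and Esrrg, an estrogen-related receptor, at 1.44 and 1.69. All genes named from these lists passed the test in both genotypes (limma, adjusted p of 0.000394 or below) and kept their sign under the 4 scalings.

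Between TG and CTR mice no member passed the test. In esophagus 0 of 85 members were called, as were 0% of the 23208 genes tested (limma; the smallest adjusted p of any gene was 0.138), and 2 members had an unadjusted p under 0.05 (3.87% of all genes did). In liver the numbers were 0 of 85, 0% of 21247 genes (smallest adjusted p 0.65) and 4 members (7.6% of all genes). The difference between the organs' genotype effects was called for 0 of 85 members and 0% of 20017 genes (smallest adjusted p 0.957), with 3 members at an unadjusted p under 0.05 (4.81% of all genes). The 95% interval of the genotype difference lay within 1 log2 unit on either side of 0 for 76 members in esophagus and 78 in liver, which bounds the change to less than 2-fold for those members.

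In esophagus the members' genotype differences ran from -0.38 to 0.70 with a median of 0.10 (log2), against 0.01 over all genes, and 60 of 85 were above 0 (70.6%, against 51.3% of all genes). In 6 members all TG esophagi exceeded all CTR esophagi and in 6 they all fell below (6.94% and 5.63% of all genes did). The smallest unadjusted p belonged to Ndufa4, with 6.28, 6.17 and 6.33 in the TG and 5.90, 6.09 and 5.53 in the CTR esophagi, a difference of 0.42 ± 0.17 (adjusted p = 0.999, limma). Atp5mpl, whose levels are given above, differed by 0.52 ± 0.22 (adjusted p = 0.999, limma). In the other direction Sdha had levels of 2.72, 2.67 and 2.92 in the TG and 3.15, 3.00 and 3.07 in the CTR esophagi, a difference of -0.30 ± 0.21 (adjusted p = 0.999, limma). For Ndufa4, Atp5mpl and Sdha the groups did not overlap, and for Ndufa4 and Atp5mpl the lowest array was esophagus CTR3. CTR3 was low for the members as a whole, with a median of -0.17 from the control mean. The other controls stood at 0.05 and 0.13 and the TG mice at 0.05 to 0.17. Without CTR3 the median difference was 0.01. Without both CTR1 and CTR3, which leaves CTR2 as the only CTR esophagus, it was -0.0157. The 3 muscle forms differed by -0.04 (Cox6a2 and Cox7a1) and 0.25 (Cox8b), while the heart markers had a median difference of -2.16 and the fat markers of -1.85 between TG and CTR esophagi. The fat medians from the control mean were -2.85, 0.06 and -2.75 in esophagi TG1, TG2 and TG3, so TG2 stood at the control level. Single heart markers ran from -6.49 (Nppa) to 0.10 (Nppb). No heart or fat marker passed the test, and their part in the members' values was not tested.

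In liver the members' genotype differences ran from -0.60 to 0.80 with a median of 0.19, against 0.13 over all genes, and 68 of 85 were above 0 (80%, against 66.7% of all genes). In 23 members all TG livers exceeded all CTR livers (27.1%, against 8.5% of all genes), and in 1 they all fell below (2.81% of all genes did). After quantile normalization the first count was 20 (5.34% of all genes), and it was 19 with normexp and in the authors' deposited table (4.89% and 4.86%). Ndufb3, an accessory subunit of complex I, had levels of 5.59, 5.72 and 5.85 in the TG and 5.14, 5.11 and 5.10 in the CTR livers, a difference of 0.60 ± 0.17 (unadjusted p = 0.00468, adjusted p = 0.65, limma). Ndufb10, another accessory subunit, had levels of 7.35, 7.17 and 7.41 in the TG and 6.60, 6.95 and 6.95 in the CTR livers, a difference of 0.47 ± 0.16 (unadjusted p = 0.0122, adjusted p = 0.65, limma). For both the groups did not overlap, and neither passed after adjustment. Cox8b differed by 0.80 ± 0.34 (adjusted p = 0.65, limma), or by 0.42 without liver CTR3 and by 0.24 without livers TG3 and CTR3. Ndufa10 differed by -0.28 (adjusted p = 0.671, limma). Cox6b2, whose liver levels had an SD of 0.72 in TG and 0.64 in CTR mice, differed by -0.60 (adjusted p = 0.688, limma).

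By complex, the liver median was 0.26 for complex III, with 7 of 7 members above 0, 0.23 for complex IV, 0.20 for the accessory subunits of complex I, 0.17 for complex V and 0.03 for the complex I core, and it was below 0 for complex II (-0.14) and for the complex I assembly factors (-0.10). All 7 complex III members had a difference between organs' genotype effects below 0. Most genes did, since 38.8% of the members and 39.1% of all genes were above 0 there. The liver medians by array were 0.12, 0.15 and 0.30 in TG and -0.10, 0.15 and -0.04 in CTR mice, as differences from the control mean. TG3, the liver array with 81.8% of its probes above background, was highest and CTR2 lay at the level of TG2. Without liver TG3 the median difference was 0.12, and within the 1 slide that held livers of both genotypes (TG3 against CTR2) it was 0.15 against 0.17 over all genes.

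The difference of the esophagus and liver genotype effects was largest, among members with the smallest p, for Ndufb10 at -0.59 ± 0.22 (unadjusted p = 0.023), Ndufb3 at -0.57 ± 0.24 (0.0368) and Ndufa10 at 0.53 ± 0.24 (0.0459), each with an adjusted p of 0.957 (limma). Ndufa10 had levels of 3.06, 3.07 and 3.02 in the TG and 2.71, 2.96 and 2.71 in the CTR esophagi, and 3.77, 3.62 and 3.87 in the TG and 3.77, 4.28 and 4.03 in the CTR livers. Its TG esophagi lay above the CTR esophagi without overlap, while its livers overlapped. For the isoform pairs, all 6 genes had an adjusted p of 0.958 or higher for this difference (limma).

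**Figure D5:**
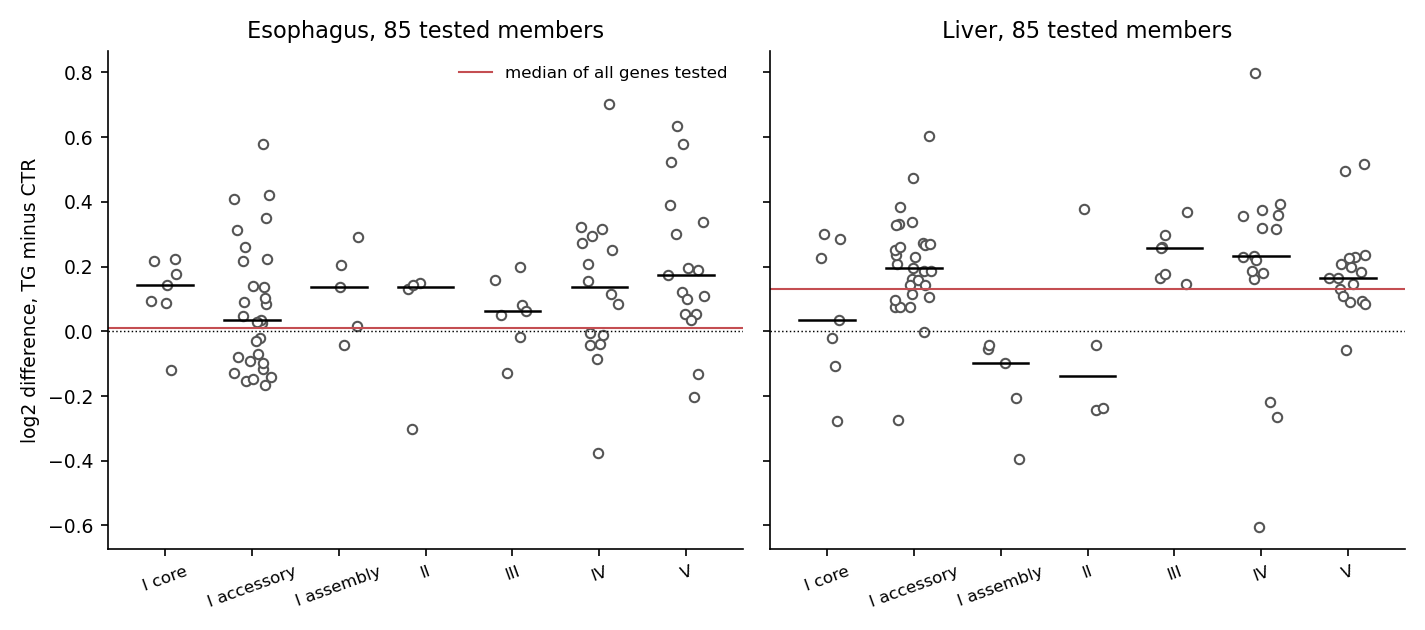
Log2 difference of TG minus CTR (vertical axis) by complex (horizontal axis) for the 85 tested members in esophagus (left) and liver (right); each open point is 1 gene, black lines mark class medians and the red line the median of all genes tested. Differences lie between -0.38 and 0.70 in esophagus and between -0.60 and 0.80 in liver, and none passed the test.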

How the data were processed

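Total RNA of 12 tissues was hybridised in 1 colour to Agilent mouse arrays (design 14868). The deposited scanner files give each spot's background-subtracted intensity, made with Agilent Feature Extraction 10.7.1.1 per the file headers, without scaling between arrays. A table of log2 values was deposited as well; limma is named per the submitters' processing notes, and the values show quantile normalization, with the background step not given in the sources used here. Control and outlier spots were left out, accessions were named through the RefSeq table of GRCm38.p6, and values are log2 intensity minus the array's 75th percentile. The brightest probe stood for a gene; 16 members had several probes, whose signs differed for 4 members between genotypes in esophagus, 3 in liver, 0 between organs in CTR and 2 in TG mice. Genes entered a test if, in 1 or both groups compared, every one of the 3 arrays measured the probe well above background. All arrays entered 1 limma fit (limma 3.58.1, R 4.3.3) with 4 groups, 8 residual degrees of freedom and 5 contrasts, and calls used a two-sided adjusted p under 0.05 (Benjamini-Hochberg over all genes tested). The number of arrays limits the precision.

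Alternatives were quantile normalization, normexp with an offset of 50 on the median signal (the files hold no mean signal, which had been planned), the authors' table, no filter on dim probes, the mean of a gene's probes, slide, animal or replicate number as a block, array weights and leaving out arrays. Livers and esophagi with one number come from the same animal; their deviations correlated at -0.06 to 0.16. Named were the isoform sets and main subunits, the 10 largest calls per direction or, with none, the 3 smallest p, and up to 4 genes of other lists. One gene that this rule names is not reported here. The members and lists were chosen with earlier results of these data known. The procedure was run on simulated data with independent noise and changes larger than the members' genotype differences, which does not show its power at their size. Figures used Python 3.11.15, pandas 2.3.3 and matplotlib 3.10.9.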

Additional observations from a re-analysis of the deposited data

How the results depend on the processing

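The organ calls of the members depended on the scaling. Members called in CTR mice were 78 with the 75th percentile, 39 with quantile normalization and 35 each with normexp and in the authors' table, and in TG mice 79, 41, 36 and 35. The members' median moved from -0.90 to -0.22, -0.18 and -0.18 in CTR and from -0.998 to -0.22, -0.19 and -0.18 in TG mice. The subtracted 75th percentile was higher in each esophagus (9.56 to 10.1, log2) than in any liver (8.91 to 9.34). Its part in these moves was not tested. Over the 4 scalings, 29 of 85 members in CTR and 18 in TG mice had no single sign. Of the genes named by rule, those that turned positive in CTR mice were, with quantile normalization, normexp and the authors' table in that order, Cox4i1 0.0198, 0.00733 and 0.00504, Cox7a2l 0.28, 0.17 and 0.17, Atp5g2 0.14, 0.0571 and 0.0564, Uqcrc1 0.67, 0.79 and 0.79, Ndufs1 0.22, 0.21 and 0.21, Ndufv1 0.12, 0.15 and 0.15, Atp5b 0.34, 0.36 and 0.36, and Uqcrc2 0.00759 with quantile normalization. In TG mice they were Atp5g2 0.19, 0.22 and 0.22, Uqcrc1 0.38, 0.41 and 0.42, Ndufs1 0.47, 0.42 and 0.42, Ndufv1 0.20, 0.14 and 0.14, and Atp5b 0.35, 0.41 and 0.41. With the mean of a gene's probes Atp5b stood at 0.077 in TG mice and Ndufv3 at 0.10 for the difference between organs. Leaving out 1 array put Cox6b2 between -0.615 and 0.0883 in TG mice, the highest without liver TG3, and 0.0883 was also its value without livers TG3 and CTR3. Without esophagi CTR1 and CTR3, an alternative added after seeing the data that left CTR2 as the only CTR esophagus, the members' esophagus genotype median was -0.0157.

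Leaving out 1 array at a time gave 69 to 78 members called between organs in CTR mice, with medians of -0.98 to -0.87, and 73 to 79 in TG mice, with medians of -1.08 to -0.94. The genotype medians then ran from 0.01 to 0.15 in esophagus and from 0.12 to 0.24 in liver, with 0 members called. With the animal as a replicate block 76 members were called in CTR and 75 in TG mice. With the replicate number within an organ as a replicate block 0 were called between genotypes; same-numbered TG and CTR samples correlated at -0.15 to 0.09. Cox6a2, Cox7a1 and Cox8b kept their direction and call between organs under all 11 other settings, at 7.94 to 8.51, 4.21 to 4.88 and 7.17 to 9.18 in CTR mice. Signal near background limits Cox8b in liver, Cox4i2 and Cox6b2.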
